A study of Homo sapiens with 18 samples.

Results

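The glutathione S-transferases described here are 10 genes, GSTP1, GSTM2, GSTM3, GSTM4, GSTA1, GSTA4, GSTO1, GSTK1, MGST1 and MGST3, of the 19775 genes that the array platform names with at least 1 probeset of their own. Every probeset whose platform symbol is exactly 1 of these genes was taken, which gave 21 probesets, 5 of them for MGST1, 3 for MGST3, 2 each for GSTM3, GSTM4, GSTA1, GSTA4 and GSTO1 and 1 each for GSTP1, GSTM2 and GSTK1. The members were named by gene and not by a cut on any measured value. Earlier results of these data were known when they were chosen. The RNA came from A549 cells, an established human lung carcinoma line, grown on transwell membranes at the air-liquid interface (ALI) and kept for 72 h in an exposure or a reference chamber with humidified air. The exposure chamber carried 0, 0.1 or 0.5 ppm formaldehyde in 3 experiments each, and the reference chamber that ran beside it carried none, so that the 18 arrays fall into 6 groups of 3. All groups were the same cell line without any genetic change, and a group differed from the others by chamber, concentration and experiment. Replicates 1 to 3 of a concentration are separate experiments, and the 2 cultures with the same number within a concentration were exposed in parallel. The question of these comparisons was which transcripts change when lung epithelial cells meet formaldehyde from the air.

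Glutathione S-transferases join the thiol of glutathione to electrophiles, which are then exported from the cell and broken down. Formaldehyde itself adds to glutathione without an enzyme, and the adduct is oxidised by ADH5 and hydrolysed by ESD. Several cytosolic transferases are targets of the transcription factor NRF2, and A549 cells carry a defective KEAP1, the protein that normally keeps NRF2 low. The soluble members belong to the pi (GSTP1), mu (GSTM2, GSTM3, GSTM4), alpha (GSTA1, GSTA4) and omega (GSTO1) classes, GSTK1 is found in mitochondria and peroxisomes, and MGST1 and MGST3 are membrane proteins of another fold. Of the epithelial markers, the log2 signal averaged 13.80 for the keratin KRT18, 12.57 for KRT8 and 9.34 for the adhesion molecule EPCAM, while the keratin KRT19 at 6.02 was not far above the median probeset. Of the type II alveolar markers, SFTPB at 5.93, SFTPC at 5.29 and NKX2-1 at 4.94 were near the median probeset, and SFTPA1 had no probeset of its own. The leukocyte markers PTPRC at 1.77 and CD3E at -0.44 were far below it. Of the fibroblast markers, the collagen COL1A1 had 8.16, COL3A1 3.23 and DCN 2.31, and of the endothelial ones PECAM1 had 4.87 and CDH5 1.82.

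The promoters of 3 members are shown because their genes differed in how much the signal varied between arrays. GSTP1 varied little, and GSTA1 and GSTA4 varied together from experiment to experiment. Each run is the 250 bases upstream of the annotated start on the gene's own strand, 5′ to 3′, in the RefSeq annotation of GRCh38.p14, and lies in the promoter outside the transcribed part of the gene. Capitals mark the matches to searched motifs that are named after the sequences.
GSTP1, chr11:67583562-67583811, plus strand: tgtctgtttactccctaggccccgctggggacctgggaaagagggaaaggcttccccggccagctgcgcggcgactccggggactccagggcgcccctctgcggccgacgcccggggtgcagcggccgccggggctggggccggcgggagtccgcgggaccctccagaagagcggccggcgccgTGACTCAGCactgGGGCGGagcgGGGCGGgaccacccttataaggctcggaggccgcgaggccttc
GSTA1, chr6:52803817-52804066, minus strand: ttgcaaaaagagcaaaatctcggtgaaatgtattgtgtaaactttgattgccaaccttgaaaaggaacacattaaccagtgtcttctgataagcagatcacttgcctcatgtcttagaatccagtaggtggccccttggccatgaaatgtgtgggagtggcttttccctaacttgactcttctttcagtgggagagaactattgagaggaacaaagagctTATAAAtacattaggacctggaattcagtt
GSTA4, chr6:52995285-52995534, minus strand: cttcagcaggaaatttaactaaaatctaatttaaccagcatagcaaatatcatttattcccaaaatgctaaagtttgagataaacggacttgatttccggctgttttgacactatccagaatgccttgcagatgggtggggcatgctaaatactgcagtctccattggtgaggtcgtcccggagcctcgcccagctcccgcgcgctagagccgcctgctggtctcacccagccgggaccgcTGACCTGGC

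The search covered both strands for TGACNNNGC, the core of the antioxidant response element that NRF2 binds, TGACTCA, the AP-1 element, TATAAA, the TATA box, and GGGCGG, the GC box. The GSTP1 run held TGACTCAGC beginning 66 bases before the start, where the AP-1 and antioxidant motifs share letters, and GC boxes beginning 53 and 43 bases before it. The GSTA1 run held a TATA box beginning 30 bases before the start, and the GSTA4 run held TGACCTGGC beginning 9 bases before it. The GC content was 74.8% for GSTP1, 50.4% for GSTA4 and 40.8% for GSTA1. All 10 genes were matched in the RefSeq table, with 12 promoter entries in all. The antioxidant core was found in 3 of these 12, those of GSTP1, GSTA4 and GSTO1, against 10.9% of 35116 promoters of the same length. The letters TATAAA were found in 3 against 10.7% of all promoters, the GC box in 8 against 42.6% and the AP-1 element in 1 against 4.2%. Besides the GSTA1 match, TATAAA lay 216 bases before the start on the opposite strand in GSTO1. In MGST1 it lay 197 bases before the start. Only the GSTA1 match was close to the start. A match describes letters in this window and shows no binding.

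The values are MAS5 signals, the fluorescence summary of a probeset, which the authors scaled to the same trimmed mean of 500 on every array, and all levels and differences below are on the log2 scale. The median signal of the 54675 probesets lay between 26.7 and 34.0 on the arrays. A level is comparable between arrays for 1 probeset, but not between probesets. Probesets that end in _x_at or _s_at can bind transcripts of related genes, so the GSTM2 and GSTM4 values in particular may hold signal of other mu class genes. A pair of reference-chamber arrays stood apart. The 5′ control probeset of actin had a log2 signal of 6.85 in replicate 3 run beside 0 ppm and of 5.90 in replicate 1 run beside 0.1 ppm, while the remaining 16 arrays lay between 7.75 and 9.70. The 5′ control probeset of GAPDH went the other way, with 14.61 and 14.67 on these 2 arrays and at most 14.31 on the rest. Each comparison with one of these arrays was therefore also made without it.

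GSTP1 (200824_at), the pi class enzyme and the main soluble transferase of many epithelia, hardly varied. Its log2 signals with 0 ppm in both chambers were 13.37, 13.24 and 13.23 in the reference chamber (replicates 1, 2 and 3, as in all such series here) and 13.30, 13.21 and 12.99 in the exposure chamber. They were 13.69, 13.36 and 13.17 in the reference chamber and 13.38, 13.25 and 13.55 in the exposure chamber at 0.1 ppm. At 0.5 ppm they were 13.02, 13.51 and 13.59 against 13.18, 13.34 and 13.32. The reference and exposure arrays overlapped at all 3 concentrations. Over the 18 arrays the SD was 0.18, whereas the median SD of the 27337 probesets above the median signal was 0.41. Most of those probesets were dimmer than GSTP1. Among similarly bright members the SD was 0.19 for MGST1, 0.25 for MGST3 and 0.34 for GSTO1, by their brightest probesets. The exposure chamber differed from its reference by -0.11 ± 0.25 (log2 difference ± SE in limma, as below) at 0 ppm, by -0.01 ± 0.35 at 0.1 ppm and by -0.09 ± 0.26 at 0.5 ppm. Within the exposure chamber, GSTP1 at 0.1 ppm was 0.23 ± 0.22 above 0 ppm, and at 0.5 ppm it was 0.11 ± 0.21 above, with 95% intervals of -0.33 to 0.78 and -0.41 to 0.64. None of the 5 passed the study's threshold, an unadjusted p under 0.05. In such bulk RNA, fewer cells that express a gene and less of its RNA per cell cannot be told apart.

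**Figure D1:**
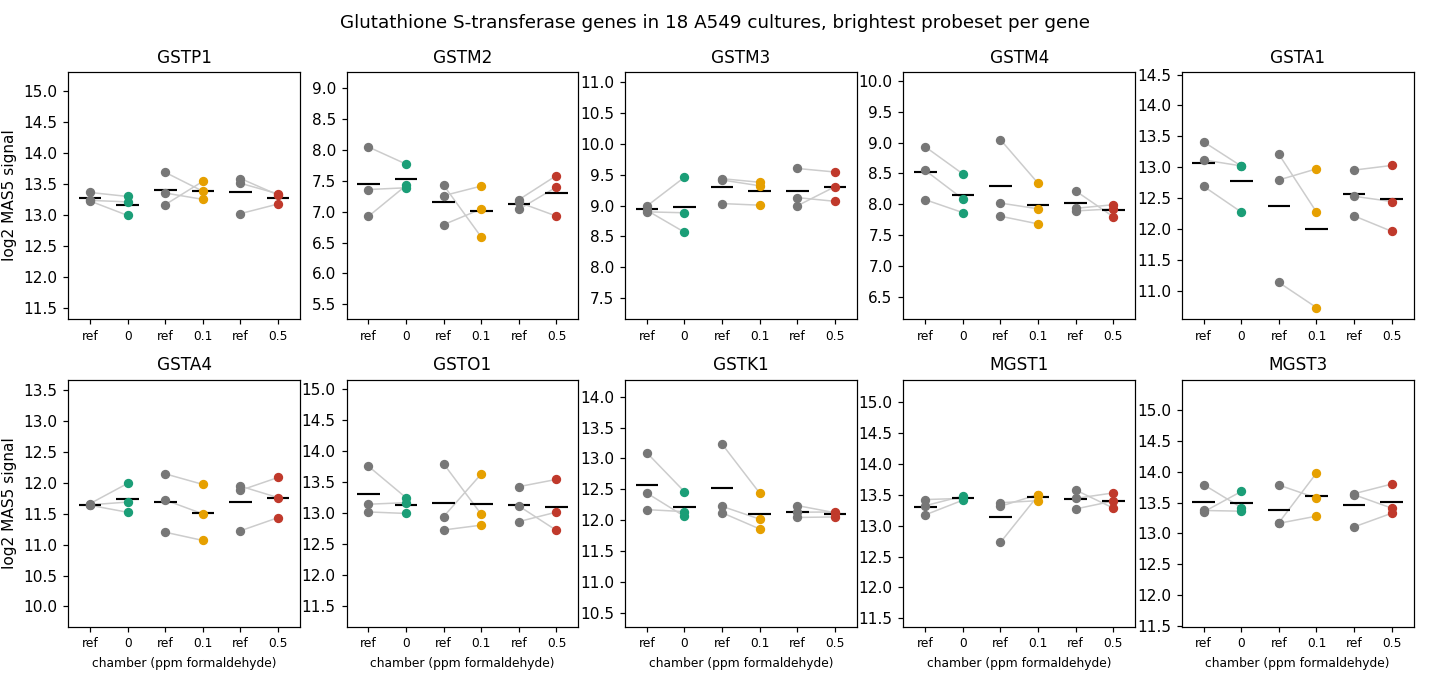
Log2 MAS5 signal (y axis, each panel spanning the same number of log2 units) of the brightest probeset of each of the 10 genes on the 18 arrays. Each point is 1 array, grey for the reference chamber and coloured for the exposure chamber at 0, 0.1 and 0.5 ppm (x axis), grey lines join the 2 cultures of an experiment, and black bars are means of 3. GSTP1 and MGST1 keep within narrow bands, GSTA1 spreads over 2.68 log2 units, and GSTK1 and GSTM4 each have 2 high reference arrays.

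In the mu class no difference of a bright probeset passed the threshold. GSTM3 (202554_s_at), which has a longer carboxyl end than its relatives, had log2 signals of 8.99, 8.92 and 8.90 in the reference chamber and 9.46, 8.57 and 8.88 in the exposure chamber at 0 ppm. The arrays at 0.1 ppm had 9.44, 9.41 and 9.03 against 9.38, 9.32 and 9.01. Those at 0.5 ppm had 8.996, 9.60 and 9.13 against 9.31, 9.54 and 9.07. The arrays of the 2 chambers overlapped at each concentration. In the exposure chamber GSTM3 was 0.34 ± 0.31 above 0 ppm at 0.5 ppm (95% interval -0.44 to 1.11, adjusted p = 1 in limma) and 0.26 ± 0.31 above it at 0.1 ppm.

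A dim second GSTM3 probeset (235867_at), with a mean log2 signal of 4.85 near the median of the array, gave one of the 2 member tests past the threshold. Its log2 signals in the exposure chamber were 4.95, 4.51 and 4.81 at 0 ppm, 4.39, 4.36 and 3.89 at 0.1 ppm and 5.55, 5.63 and 5.40 at 0.5 ppm. The groups did not overlap, and the order of concentrations was 0.1 ppm lowest and 0.5 ppm highest. The difference between 0.5 and 0 ppm was 0.77 ± 0.23 (95% interval 0.21 to 1.33, adjusted p = 0.942 in limma). In the reference chamber, where no formaldehyde was present, the same probeset had 5.29, 4.03 and 5.26 beside the 0 ppm experiments, 4.96, 4.81 and 4.06 beside those at 0.1 ppm and 4.94, 5.22 and 5.16 beside those at 0.5 ppm. At 0.5 ppm the exposure arrays were all above the reference arrays, by 0.42, which did not pass (adjusted p = 1 in limma). The chamber difference at 0.5 ppm was 0.52 above that at 0 ppm and did not pass.

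GSTM4 (210912_x_at), another mu class enzyme, had log2 signals of 8.08, 8.55 and 8.93 in the reference chamber and 7.87, 8.09 and 8.49 in the exposure chamber at 0 ppm. Its values at 0.1 ppm were 9.05, 7.81 and 8.02 against 8.34, 7.68 and 7.93, and at 0.5 ppm 7.89, 8.22 and 7.94 against 7.93, 7.80 and 7.99. The 2 highest values are the 2 arrays of low actin 5′ signal. The exposure chamber differed from its reference by -0.37 ± 0.35 at 0 ppm, by -0.31 ± 0.46 at 0.1 ppm and by -0.11 ± 0.23 at 0.5 ppm, none of which passed. Without the low-actin array the difference was -0.16 at 0 ppm and 0.07 at 0.1 ppm. In 7 of the 9 experiments the exposure culture was below the reference culture run beside it. The same count held for GSTP1, GSTM3, GSTA1 and GSTK1, and 18.02% of all probesets were lower in at least 7. After quantile normalization the count was 7 for GSTM4 and GSTP1, 5 for GSTM3, 8 for GSTA1 and 9 for GSTK1. Of all probesets, 13.42% were then lower in at least 7 and 4.16% in at least 8. The second GSTM4 probeset ran between 6.52 and 8.14 and passed in no comparison.

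GSTM2 (204418_x_at), the muscle-type mu enzyme, was measured by a single probeset. It had log2 signals of 6.92, 7.36 and 8.05 against 7.42, 7.39 and 7.77 in the exposure chamber at 0 ppm, 7.43, 6.79 and 7.26 against 6.59, 7.04 and 7.41 at 0.1 ppm, and 7.15, 7.19 and 7.04 against 6.93, 7.58 and 7.40 at 0.5 ppm. The chambers overlapped at every concentration. Its largest difference was -0.51 ± 0.30 between 0.1 and 0 ppm in the exposure chamber (95% interval -1.25 to 0.23, adjusted p = 1).

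GSTA1 (203924_at), an alpha class enzyme known for its peroxidase and steroid isomerase activities, varied most among the bright probesets of the family. Its log2 signals were 12.69, 13.12 and 13.41 in the reference chamber and 12.28, 13.02 and 13.02 in the exposure chamber at 0 ppm. At 0.1 ppm they were 13.21, 11.14 and 12.79 in the reference chamber and 12.28, 10.73 and 12.97 in the exposure chamber. At 0.5 ppm they were 12.53, 12.21 and 12.95 against 12.45, 11.96 and 13.03. Replicate 2 of the 0.1 ppm experiments was the lowest array in both chambers, and replicate 2 at 0.5 ppm was the next lowest in both. The SD over 18 arrays was 0.71 and the range 2.68. GSTA1 had the largest difference of all bright probesets, 0.1 ppm being 1.72-fold lower than 0 ppm in the exposure chamber (-0.78 ± 0.63, 95% interval -2.34 to 0.78, adjusted p = 1). Without the low replicate 2 at 0.1 ppm it was -0.15. Between the chambers GSTA1 differed by -0.30 ± 0.36 at 0 ppm, -0.39 ± 0.79 at 0.1 ppm and -0.09 ± 0.38 at 0.5 ppm. A dim second GSTA1 probeset ran between 2.48 and 5.05 and passed in no comparison.

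GSTA4 (202967_at) conjugates 4-hydroxynonenal, an aldehyde released by lipid peroxidation. Its log2 signals were 11.64, 11.64 and 11.66 in the reference chamber and 11.52, 11.69 and 11.99 in the exposure chamber at 0 ppm. At 0.1 ppm they were 11.72, 11.20 and 12.15 against 11.50, 11.07 and 11.97, and at 0.5 ppm 11.95, 11.22 and 11.88 against 11.76, 11.44 and 12.09. As for GSTA1, replicate 2 was the lowest of its group at 0.1 and at 0.5 ppm in both chambers. The differences between chambers were 0.09 ± 0.26, -0.18 ± 0.44 and 0.08 ± 0.32 at 0, 0.1 and 0.5 ppm, and none passed. A dim second GSTA4 probeset ran between 4.89 and 6.63 and passed in no comparison.

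GSTO1, which reduces dehydroascorbate and mixed disulfides, had 2 bright probesets. The brighter (201470_at) gave log2 signals of 13.01, 13.14 and 13.75 in the reference chamber and 12.99, 13.17 and 13.25 in the exposure chamber at 0 ppm. The values at 0.1 ppm were 13.79, 12.72 and 12.94 against 12.98, 12.80 and 13.63, and at 0.5 ppm 12.86, 13.11 and 13.42 against 13.01, 12.72 and 13.54. The chambers overlapped throughout, with differences of -0.17 ± 0.31, -0.02 ± 0.46 and -0.04 ± 0.32 on the log2 scale. The other probeset (1557915_s_at) ran between 11.72 and 12.45 and gave -0.12, -0.09 and -0.09.

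GSTK1 (217751_at), the transferase of mitochondria and peroxisomes, had log2 signals of 12.17, 12.44 and 13.09 in the reference chamber and 12.14, 12.06 and 12.46 in the exposure chamber at 0 ppm. With 0.1 ppm it had 13.23, 12.12 and 12.22 against 12.44, 11.86 and 12.02, and at 0.5 ppm 12.04, 12.24 and 12.13 against 12.05, 12.12 and 12.13. The values of 13.09 and 13.23 belong to the 2 low-actin arrays, and the other 16 arrays reached at most 12.46. The chamber difference was -0.35 ± 0.34 at 0 ppm, -0.42 ± 0.45 at 0.1 ppm and -0.03 ± 0.21 at 0.5 ppm, and none passed. Without the low-actin array it was -0.08 at 0 ppm and -0.07 at 0.1 ppm. Within experiments GSTK1 was lower in the exposure chamber in 7 of 9, and in 9 of 9 after quantile normalization. Of all probesets, 18.02% were lower in at least 7 experiments, and 0.638% in all of them after quantile normalization.

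MGST1, the abundant transferase and glutathione peroxidase of the endoplasmic reticulum and outer mitochondrial membrane, had 3 bright and 2 dim probesets. The brightest (224918_x_at) gave log2 signals of 13.42, 13.32 and 13.17 in the reference chamber and 13.44, 13.48 and 13.41 in the exposure chamber at 0 ppm. At 0.1 ppm it gave 12.73, 13.37 and 13.31 against 13.49, 13.40 and 13.50, and at 0.5 ppm 13.27, 13.58 and 13.44 against 13.40, 13.28 and 13.53. At 0.1 ppm every exposure array was above every reference array, for this and for the second bright probeset, but the difference of 0.33 ± 0.36 did not pass (95% interval -0.54 to 1.19, adjusted p = 0.998). It was 0.12 without the low-actin reference array. All 3 bright probesets were lowest on the 2 low-actin arrays. The second (231736_x_at) ran between 12.30 and 13.48, and the third (1565162_s_at) gave 11.63 and 11.04 on those arrays and 12.46 to 12.99 on the others. Within experiments the brightest probeset was higher in the exposure chamber in 8 of 9, but in 3 of 9 after quantile normalization, and 2.79% of all probesets were higher in at least 8 as deposited.

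A dim MGST1 probeset (240688_at), with a mean log2 signal of 5.12, gave the other member test past the threshold, and it did so with no formaldehyde in either chamber. In the 0 ppm experiments it had 4.94, 4.96 and 4.89 in the reference chamber and 5.36, 5.59 and 6.04 in the exposure chamber, which did not overlap. The difference was 0.73 ± 0.29 (95% interval 0.02 to 1.45, adjusted p = 0.88). The 0.1 ppm arrays had 5.51, 2.99 and 5.63 against 4.31, 5.44 and 5.28, and at 0.5 ppm 5.85, 4.68 and 5.07 against 5.55, 4.87 and 5.26. The chambers overlapped at both concentrations. The other dim probeset (239001_at) ran between 5.27 and 6.86 and passed in no comparison.

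MGST3 (201403_s_at), a membrane enzyme of the same family as the leukotriene C4 synthase, had log2 signals of 13.37, 13.35 and 13.79 in the reference chamber and 13.36, 13.68 and 13.42 in the exposure chamber at 0 ppm. At 0.1 ppm it had 13.78, 13.16 and 13.17 against 13.57, 13.28 and 13.98, and at 0.5 ppm 13.11, 13.63 and 13.64 against 13.33, 13.41 and 13.80. The chambers overlapped, with differences of -0.02 ± 0.28, 0.24 ± 0.39 and 0.05 ± 0.28 on the log2 scale. A dim MGST3 probeset (233307_x_at) had larger differences, -1.68 ± 0.93 at 0.1 ppm and -1.22 ± 1.09 at 0.5 ppm, and passed in neither. The lowest arrays were replicate 3 at 0.1 ppm with 2.18 and replicate 2 at 0.5 ppm with 1.86, whereas the other 16 arrays lay between 4.60 and 6.35. Without the low array the difference was -0.68 at 0.1 ppm and 0.01 at 0.5 ppm. The last probeset ran between -1.27 and 3.43, close to the bottom of the scale.

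**Figure D2:**
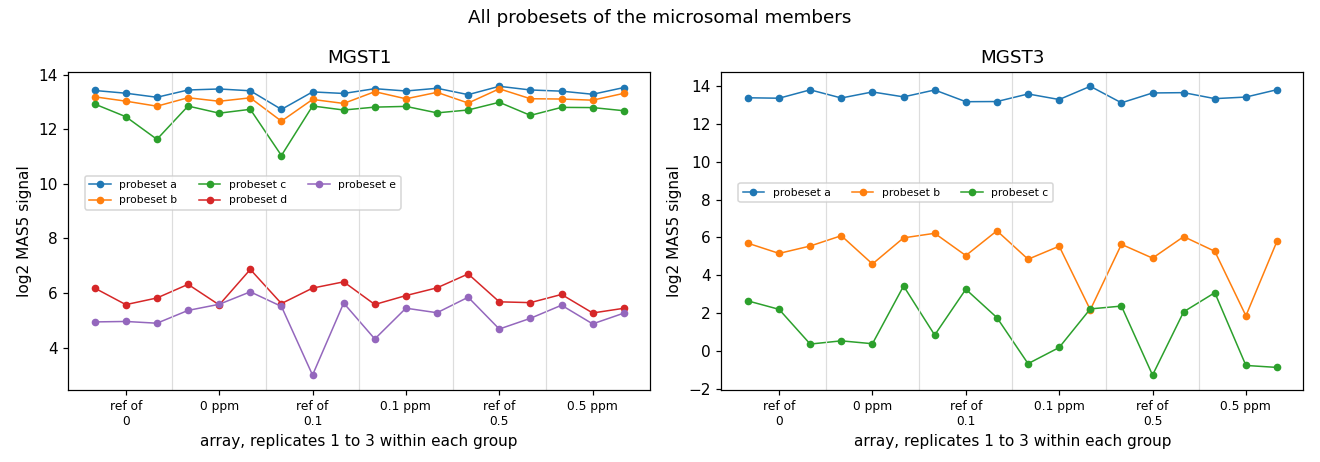
Log2 MAS5 signal (y axis) of all 5 MGST1 and all 3 MGST3 probesets on the 18 arrays (x axis, reference and exposure chamber of the 0, 0.1 and 0.5 ppm experiments, replicates 1 to 3 from left to right). Each line is 1 probeset, lettered from the brightest, and joins arrays only to guide the eye. The bright MGST1 probesets dip on the same 2 reference arrays, and the MGST3 probeset b lies at 2.18 and 1.86 on 2 exposure arrays.

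Counted over the family, 1 of 21 probesets passed between the chambers at 0 ppm, 0 at 0.1 ppm and 0 at 0.5 ppm, whereas 4.84%, 4.00% and 3.92% of all probesets did. In the exposure chamber 0 of 21 passed between 0.1 and 0 ppm and 1 between 0.5 and 0 ppm, beside 4.47% and 4.56% of all probesets. The 2 calls of 105 member tests were no larger a share than over the whole array, and both were of dim probesets whose bright partners did not pass. Of the 50 tests on the brightest probesets 0 passed, and 48 differences were smaller than 0.5 on the log2 scale. The half-width of the 95% interval of these differences, in the fit that does not pair the chambers, ran from 0.49 for MGST1 to 1.90 for GSTA1 at 0.1 ppm between the chambers. An observed difference smaller than the half-width of its own comparison could not pass. With 3 arrays per group, true changes of about that size can be missed. With the chambers of an experiment paired, 0 of the 21 probesets passed at any concentration. After adjustment in limma 0 of 21 passed in any of the 5 comparisons, with lowest adjusted p values of 0.88, 0.998, 1, 1 and 0.942 in the order above.

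For the bright probesets the 6 group means spanned 0.21 log2 units for GSTO1, 0.24 for GSTP1, 0.24 for MGST3, 0.25 for GSTA4, 0.33 for MGST1, 0.37 for GSTM3, 0.46 for GSTK1, 0.51 for GSTM2, 0.61 for GSTM4 and 1.08 for GSTA1. The mean of GSTA1 was highest in the reference chamber beside 0 ppm, 13.07 ± 0.36 (SD, n = 3), and lowest in the exposure chamber at 0.1 ppm, 11.99 ± 1.15. GSTK1, GSTM4 and GSTO1 also had their highest mean in the reference chamber beside 0 ppm, and each had its lowest in the exposure chamber at 0.5 ppm. MGST1 and MGST3 had their highest mean in the exposure chamber at 0.1 ppm and their lowest in the reference chamber beside it. Neighbouring means in these orders differed by less than the pooled SD of the arrays within groups. Without the low-actin arrays the highest or lowest group changed for GSTO1, GSTA1 and GSTP1. GSTO1 then had its highest mean in the exposure chamber at 0.1 ppm (13.14) and its lowest in the reference chamber beside it (12.83). The lowest mean of GSTA1 was then in that reference chamber. The highest mean of GSTP1 moved from that reference chamber to the exposure chamber at 0.1 ppm (13.39). The spans were then 0.20 for GSTK1, 0.41 for GSTM4 and 0.12 for MGST1.

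The median difference of the 21 probesets was -0.04 at 0 ppm, -0.09 at 0.1 ppm and -0.03 at 0.5 ppm between the chambers, beside -0.07, -0.07 and -0.04 for all probesets. In the exposure chamber it was -0.12 between 0.1 and 0 ppm and -0.04 between 0.5 and 0 ppm, beside -0.03 and -0.04 for all probesets. Groups of 3 arrays lay wholly to 1 side of each other for 1, 2, 1, 1 and 1 of the 21 probesets, and for 10.0%, 7.87%, 6.75%, 8.57% and 8.55% of all. The comparisons with 0 ppm share the exposure arrays at 0 ppm. The 3 tests of whether the chamber difference itself changed with concentration gave 0 calls of 63, with background shares of 3.21% for 0.1 against 0 ppm, 3.69% for 0.5 against 0 ppm and 3.13% for 0.5 against 0.1 ppm.

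**Figure D3:**
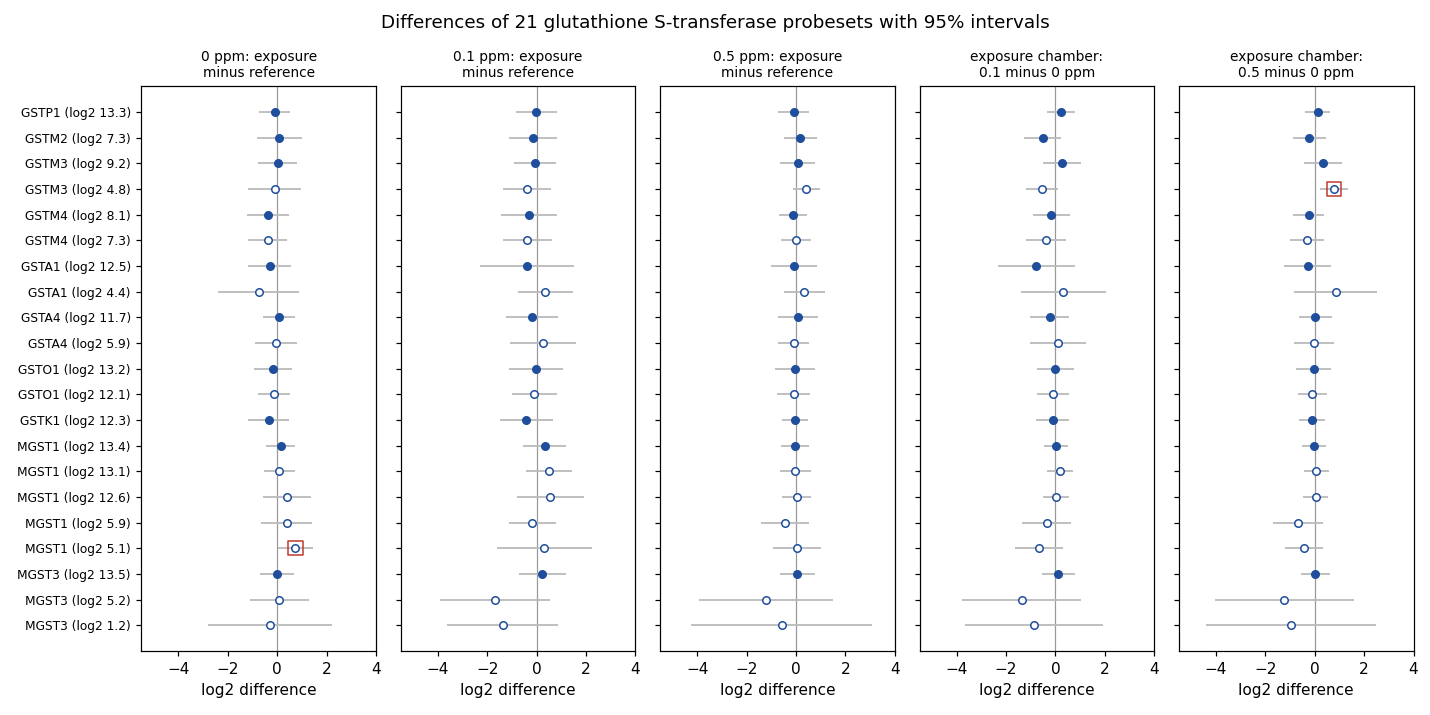
Log2 difference (x axis) with its 95% interval in limma (grey bars) for the 21 probesets (y axis, with the mean log2 signal in parentheses) in 5 comparisons. Filled points are the brightest probeset of each gene, open points the others, and red squares mark the 2 tests with an unadjusted p under 0.05. All filled points lie within 0.78 of 0.

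On the 2 low-actin arrays some members were high and others low. On both, GSTA1 (13.41 and 13.21), GSTK1, GSTM4 (8.93 and 9.05) and GSTO1 (13.75 and 13.79) were above each of the other 16 arrays, MGST1 was below each of them, and GSTA4, GSTM2, GSTM3, GSTP1 and MGST3 lay within their range. Over all probesets, both arrays were above the others for 14.1% and below them for 9.57%. Since both are reference-chamber arrays, they enter the chamber comparisons at 0 and 0.1 ppm on 1 side. Without them the GSTA1 difference was -0.13 at 0 ppm and 0.03 at 0.1 ppm, and that of GSTO1 was 0.06 and 0.30. No member passed without them. The 2 exposure cultures run beside them had MGST1 signals of 13.41 and 13.49, within the range of the remaining arrays.

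Some members were high or low in the same experiments in both chambers. This relation was examined after the values had been seen. Over the 9 experiments, Pearson's r between the reference and the exposure chamber was 0.90 for GSTA1 (exact permutation p = 0.00514, adjusted over 10 members 0.0257), 0.89 for GSTM4 (exact p = 0.00287, adjusted 0.0257), 0.88 for GSTK1 (exact p = 0.0119, adjusted 0.0297) and 0.79 for GSTA4 (exact p = 0.0114, adjusted 0.0297). Spearman's rho was 0.63 for GSTA1 (exact p = 0.076), 0.70 for GSTM4 (exact p = 0.0433), 0.63 for GSTK1 (exact p = 0.076) and 0.73 for GSTA4 (exact p = 0.0311), all with an adjusted p of 0.152. The other 6 members had r between -0.38 for MGST1 and 0.67 for GSTM3 and did not pass after adjustment, GSTP1 having 0.32. The median r of all probesets was 0.18, and 0.33 for those above the median signal, of which 0.746% had an r of at least that of GSTA1 and 5.09% an r of at least that of GSTA4, the lowest of the 4.

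Without the 2 experiments farthest from the median reference signal, r was 0.57 for GSTA1 (exact p = 0.185), 0.60 for GSTA4 (exact p = 0.152), 0.58 for GSTM4 (exact p = 0.178) and 0.15 for GSTK1 (exact p = 0.699), so that for none of the 4 did the relation pass without those experiments. Leaving out the extremes narrows the range of signals. Without the 2 experiments that hold a low-actin array, r over 7 experiments was 0.98 for GSTA1 and 0.88 for GSTA4 (adjusted exact p = 0.0159 and 0.0456), while GSTM4 at 0.58 and GSTK1 at 0.15 no longer passed. Within a concentration there are 3 experiments, too few for a correlation. For GSTA1 the experiment means ranged over 2.28 log2 units, and the median size of the difference between the 2 chambers of an experiment was 0.25. For GSTP1 these values were 0.44 and 0.17.

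**Figure D4:**
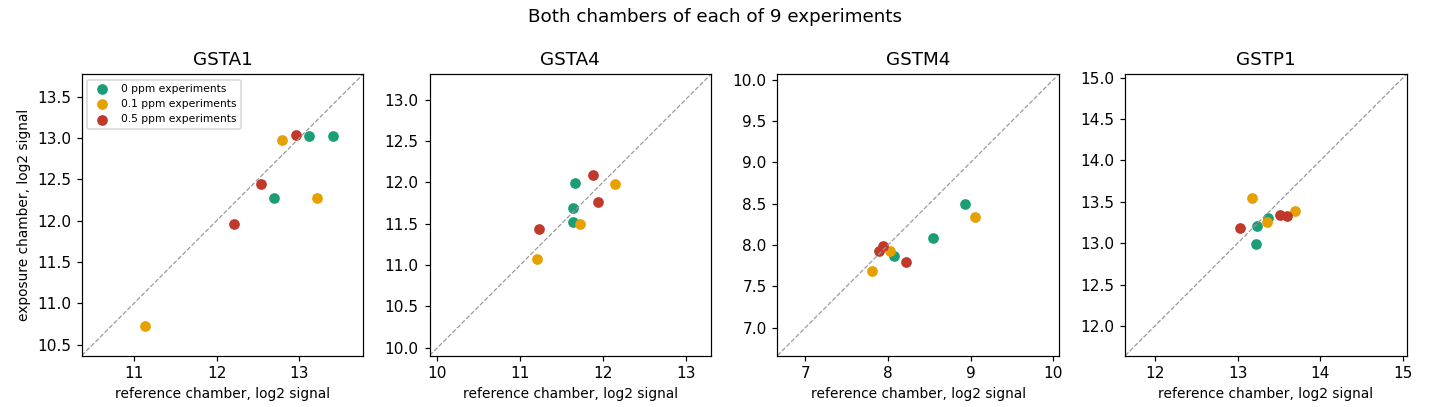
Log2 MAS5 signal in the exposure chamber (y axis) against the reference chamber (x axis) for GSTA1, GSTA4, GSTM4 and GSTP1. Each point is 1 of 9 experiments, coloured by the formaldehyde concentration of its exposure chamber, and the dashed line marks equal signals. GSTA1 follows the line over more than 2 log2 units with 1 experiment far below the others, whereas the GSTP1 points form a small cloud.

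Some members varied together over the 18 arrays, which share experiments and chambers, and others in opposite directions. Of the 45 pairs of members, 27 had a Pearson's r of log2 signal above 0 and 18 below, with a median of 0.21. The 3 highest were 0.95 for GSTK1 and GSTM4, 0.84 for GSTO1 and MGST3 and 0.76 for GSTA1 and GSTA4, and on the 16 arrays without low actin these were 0.90, 0.83 and 0.82. The lowest were -0.74 for GSTK1 and MGST1 and -0.61 for GSTM4 and MGST1, which became 0.03 and 0.17 on the 16 arrays, and -0.58 for GSTM3 with GSTA1 and with GSTA4, which became -0.65 and -0.62. For MGST1, r also went from -0.03 to 0.78 with MGST3, from -0.33 to 0.61 with GSTO1 and from -0.19 to 0.55 with GSTP1. With GSTA4 and GSTM2 it stayed below 0. That of GSTK1 and GSTO1 fell from 0.63 to 0.10. The signs of pairs with MGST1 thus depended on the 2 low-actin arrays. For 6 members the most similar profiles were searched among 12392 genes. That of GSTP1 was closest to LGALS1 (r 0.89), ANKRD18B (0.81) and BLM (0.78), and that of GSTM3 to TOPBP1 (0.85), BRIP1 (0.83) and RRM1 (0.82). That of GSTO1 was closest to TAF15, C14orf119 and PPA1 (each 0.98), and that of MGST3 to NACA, RPS18 and CHCHD2 (each 0.98). That of GSTK1 was closest to ARSD, PDPR and CYB561 (each 0.97), with 0.87, 0.84 and 0.85 on the 16 arrays. That of MGST1 was closest to PRKCI (0.94), CALU (0.92) and LAPTM4A (0.92), with 0.80, 0.73 and 0.70 on the 16.

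Of 17 other glutathione transferases and related enzymes, 14 had probesets of their own, 20 in all. Of these, 0 passed between the chambers at 0 ppm, 1 higher and 1 lower passed at 0.1 ppm, and 1 higher at 0.5 ppm. The shares of all probesets were 4.84%, 4.00% and 3.92%. In the exposure chamber 1 higher and 1 lower passed between 0.1 and 0 ppm and 0 passed between 0.5 and 0 ppm. Of all probesets, 4.47% and 4.56% did. None passed after adjustment. The calls at 0.1 ppm were the same 2 probesets in both comparisons, which share the exposed arrays. Neither passed between the chambers at 0 ppm, so on unadjusted p both met the study's full rule for 0.1 ppm. A dim probeset of GSTT1, the theta class enzyme that acts on halomethanes, had 3.63, 1.99 and 3.79 at 0.1 ppm, 0.99, 0.90 and -0.27 in its reference chamber and 1.15, -0.04 and 1.05 at 0 ppm, with adjusted p = 0.845 and adjusted p = 0.875. Its mean log2 signal of 1.76 is near the bottom of the scale, and the size of such a difference cannot be interpreted. The reference chamber beside 0.5 ppm, without formaldehyde, had 3.34, 2.27 and 2.87. A dim probeset of GSTCD (1554518_at, mean log2 signal 2.99) was lower in both (adjusted p = 0.998 and adjusted p = 1), with 0.71, 0.14 and 2.89 at 0.1 ppm against 3.22, 2.77 and 3.52 in its reference chamber, which overlapped, and 3.29, 3.61 and 4.24 at 0 ppm, which did not. Another dim GSTCD probeset (220063_at) gave the call at 0.5 ppm, 1.65 above its reference chamber, and was 0.57 above it at 0.1 ppm without passing. The bright GSTCD probeset (235387_at) passed nowhere, with differences between the chambers of 0.24 at 0.1 ppm and -0.11 at 0.5 ppm, and of -0.09 between 0.1 and 0 ppm. In the tests of whether the chamber difference changed with concentration, 1 of the 20 passed for 0.1 against 0 ppm, 0 for 0.5 against 0 ppm and 2 for 0.5 against 0.1 ppm, all of them the dim GSTT1 and GSTCD probesets, and 0 after adjustment. The shares of all probesets in these tests were 3.21%, 3.69% and 3.13%.

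Glutathione supply, recycling and conjugate handling was represented by 23 of 25 listed genes with 46 probesets. Of these, 1 fell between the chambers at 0 ppm, 1 rose between 0.5 and 0 ppm in the exposure chamber, and 0 passed in the other 3 comparisons or after adjustment. Of all probesets, 4.84% passed in the first comparison, 4.56% in the second and 3.92% to 4.47% in the other 3. Both calls were of CHAC1, which degrades glutathione and had a mean log2 signal of 4.03, below the median probeset. It had 3.83, 4.81 and 4.77 in the reference chamber and 3.07, 3.01 and 2.39 in the exposure chamber at 0 ppm, and 4.32, 4.97 and 4.47 at 0.5 ppm. It fell by 1.65 (adjusted p = 0.659) in the first and rose by 1.76 (adjusted p = 0.463) in the second, which share the low arrays of the exposure chamber at 0 ppm. Its reference chamber at 0.5 ppm, with 4.46, 3.61 and 3.15, overlapped the exposed arrays. For the change of the chamber difference, 2 of the 46 passed for 0.1 against 0 ppm, the extracellular peroxidase GPX3 (0.95) and a dim ESD probeset (-2.37), then CHAC1 for 0.5 against 0 ppm (2.497) and 0 for 0.5 against 0.1 ppm, and 0 after adjustment. The shares of all probesets were 3.21%, 3.69% and 3.13% in the same order. The glutathione synthesis subunits GCLC and GCLM, the reductase GSR and the formaldehyde-oxidising ADH5 passed in no comparison.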

How the data were processed

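RNA of 18 A549 ALI cultures was labelled with a 3′ amplification kit and hybridised to HG-U133 Plus 2.0 arrays. The authors normalized the raw data with MAS5, and the deposited intensity values are linear MAS5 signals with the same trimmed mean (2% removed at each end) on all arrays. They were log2-transformed here. Groups came from the labels. Following the study, each pair of groups was fitted on its own arrays with limma 3.58.1 (lmFit, eBayes) in R 4.3.3 over all 54675 probesets, at an unadjusted p under 0.05, with Benjamini-Hochberg adjustment beside it. Intervals are 95% intervals of limma. The number of arrays limits the precision. Exact permutation tests were two-sided (SciPy 1.17.1, Python 3.11.15), and figures were drawn with Matplotlib 3.10.9. Scripts were tested on simulated data.

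Of the probesets, 41097 name 1 gene, 1801 several and 11777 none in the platform annotation. Only the first were named. The members, gene lists and alternatives were chosen with earlier results of these data known. By rule, the brightest probeset of each member and each other member probeset past the threshold is given on every array, and others by their range. The alternatives were quantile normalization, 32 added to each signal, a filter at the median signal, eBayes with a trend, all arrays in 1 fit, the brightest probesets only, each array left out, the low-actin arrays left out and the replicate number as a block. Cultures with the same number within a concentration were run in parallel, as the raw-data names in the labels show, so the numbers pair the chambers. The deviations of same-numbered arrays correlated by 0.31, 0.01 and 0.32 at 0 ppm, 0.05, 0.49 and 0.01 at 0.1 ppm and 0.46, 0.46 and 0.41 at 0.5 ppm. Between the chambers, those of differently numbered arrays ran from -0.43 to 0.28. The highest was exposure replicate 3 with reference replicate 1 at 0.1 ppm, above 0.01 for replicate 3 with its own number. A number is not shared between concentrations.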

Additional observations from a re-analysis of the deposited data

How the results depend on the processing

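Counts of member probesets past the threshold were 1 or 0 under every setting run. With the replicate block, which pairs the chambers of an experiment, the count at 0 ppm went from 1 to 0. With the replicate block between 0.5 and 0 ppm, where the number pairs nothing, the count also went from 1 to 0. The replicate block changed no other count. The count at 0 ppm was also 0 under a trend in eBayes, with all 18 arrays in 1 fit and with the brightest probesets only, and 0 to 1 when an array was left out. It was 0 without replicate 1, 2 or 3 of the reference chamber and without replicate 2 or 3 of the exposure chamber. The count between 0.5 and 0 ppm was also 0 under a trend and with the brightest probesets only. It was 1 in each fit without an array, but without replicate 2 at 0 ppm the call was another dim MGST1 probeset (239001_at, -1.04). The dim GSTM3 probeset added 1 call at 0.5 ppm between the chambers (0.23) and 1 call for 0.5 against 0.1 ppm in the change of the chamber difference (0.40) when 32 was added to each signal, and 1 call between 0.1 and 0 ppm (-0.54) among probesets above the median signal. Counts without 1 array were 0 to 1 at 0.1 ppm between the chambers, with dim MGST3 probesets called without replicate 2 or 3 of the exposure chamber. They were 0 to 1 for each of the 3 changes of the chamber difference, with a call without replicate 2 of the reference or exposure chamber at 0.1 ppm, replicate 2 of the reference chamber at 0 ppm and replicate 3 of the reference chamber at 0.1 ppm. For the correlation between chambers, 4 members passed by Pearson's r, 2 without the experiments of low actin and 0 by Spearman's rho on the signals as deposited. With group means subtracted, 4 passed by r, and GSTA1, GSTA4 and GSTK1 by rho (adjusted permutation p = 0.00437 each). That permutation exchanged experiments between concentrations after the subtraction. The subtraction ties the 3 values of a group to one another, so these p values are not exact and may be too small. No difference past the threshold changed its sign under any setting. The causes were not tested. Signals near the median probeset limit the dim probesets, and 3 arrays per group limit all.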
